A study of Rattus norvegicus with 14 samples.

Results

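The comparison described here sets hippocampus of PTZ-treated rats that also received Q808 (PTZ+Q808) against hippocampus of rats that received PTZ without it (PTZ), across all genes in the expression files. It takes 10 of the 14 samples of the series, 5 PTZ+Q808 libraries and 5 PTZ libraries, chosen by their labels. The 4 control libraries are outside the comparison and its fit, and their values are given as the background level. They enter 1 alternative, in which all 3 groups were fitted together. All animals were wild type Wistar rats with a labelled weight of 180 to 220 g. PTZ+Q808 animals had the PTZ seizure model and Q808, PTZ animals had the PTZ seizure model with the vehicle, and controls had the vehicle alone. The sources used here do not give age, sex, dose or the time between injection and sampling. The stated number of rats in each group equals the number of libraries, and no sample is described as a pool.

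PTZ, pentylenetetrazole, is a convulsant that blocks the chloride channel of the GABA-A receptor, the main fast inhibitory receptor of the forebrain, and is widely used to test candidate antiseizure compounds. Seizures and other strong activity in hippocampal neurons induce immediate early genes, a rapid class led by transcription factors such as Fos, Egr1 and Npas4, and later a class of secreted and synaptic proteins such as BDNF. Q808 is known here only by its code name. The question was whether transcript levels in PTZ-treated hippocampus differed when Q808 was given.

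The measure was FPKM, fragments counted per gene scaled to transcript length and to the mapped fragments of the library, as computed by the authors for 22601 genes. Total FPKM ran from 390584 to 419358 in PTZ+Q808 libraries and from 383126 to 406328 in PTZ libraries (two-sided exact permutation test, n = 5 each, p = 0.476). Depth itself is unknown. From the spacing of low values it ran from 0.861 to 1.00 in PTZ+Q808 libraries and from 0.934 to 1.04 in PTZ libraries, relative to PTZ replicate 1. Markers of the labelled tissue were present: C1ql2, a dentate granule cell gene, was 36.8 to 61.9 FPKM in PTZ+Q808 libraries and 33.9 to 48.8 FPKM in PTZ libraries, and Wfs1, a CA1 pyramidal cell gene, was 109 to 152 FPKM in PTZ+Q808 libraries and 129 to 157 FPKM in PTZ libraries. A low value in these files need not mean a silent gene. Rps6, a ribosomal protein gene that every cell uses, was listed at 1.04 FPKM or less in every PTZ+Q808 and PTZ library, and Npy, a defining interneuron peptide, at 0.1 FPKM or less.

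Some libraries stood apart from their groups. PTZ replicate 1 held cerebellar transcripts (Pcp2 at 41.9 FPKM, at most 1.74 in the other PTZ libraries) and pineal transcripts (Tph1 at 192 FPKM, at most 0.163 in the other PTZ libraries). PTZ+Q808 replicate 3 held pituitary transcripts, with Prl at 395 FPKM, at most 0.71 in the other PTZ+Q808 libraries. The choroid plexus transcript Ttr stood at 329 FPKM in PTZ+Q808 replicate 1 and 113 FPKM in PTZ replicate 2, and 1315 FPKM or more in the other 8 libraries. Y-linked transcripts (Kdm5d, Eif2s3y and Ddx3 at 1 FPKM or more) were present in 3 PTZ+Q808 libraries, replicates 1, 2 and 4, and in 3 PTZ libraries, replicates 1, 2 and 5. Values without these libraries are given where they moved a result.

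No gene passed the test between PTZ+Q808 and PTZ. Genes at 1 FPKM or more in at least 5 of the 10 libraries were tested (12446 genes) with limma on log2(FPKM + 1), two-sided, and 0 of them (0%) had a Benjamini-Hochberg adjusted p under 0.05. The smallest adjusted p was 0.609. An unadjusted p under 0.05 was reached by 703 genes (5.65%), 371 higher in PTZ+Q808 (2.98%) and 332 lower (2.67%), where p-values spread evenly would give 622.3. That count was 1063 without PTZ+Q808 replicate 4 and 439 without PTZ replicate 3. The 5 PTZ+Q808 values lay entirely above or below the 5 PTZ values in 97 genes (0.779%), 56 higher (0.45%) and 41 lower (0.329%).

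The differences were small for most genes. The median log2 difference was -0.0046 and the median absolute difference was 0.067, and 12 genes had an absolute log2 difference over 1. The median half-width of the 95% interval was 0.188 on the log2 scale. The whole 95% interval lay within 1.5-fold either way for 93.1% of genes tested and within 2-fold for 98.1%, as folds of FPKM + 1. A 2-fold difference in FPKM + 1 was thus outside the interval for most genes, but not for genes that varied widely between animals. For genes of low FPKM the intervals do not bound the fold in FPKM itself, which the added 1 shrinks. The first 4 principal components, with 22.8%, 18.4%, 15.5% and 13.7% of the variance, gave exact permutation p-values of 0.325 or more between the groups (two-sided, n = 5 each, smallest possible p = 0.00794).

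**Figure D1:**
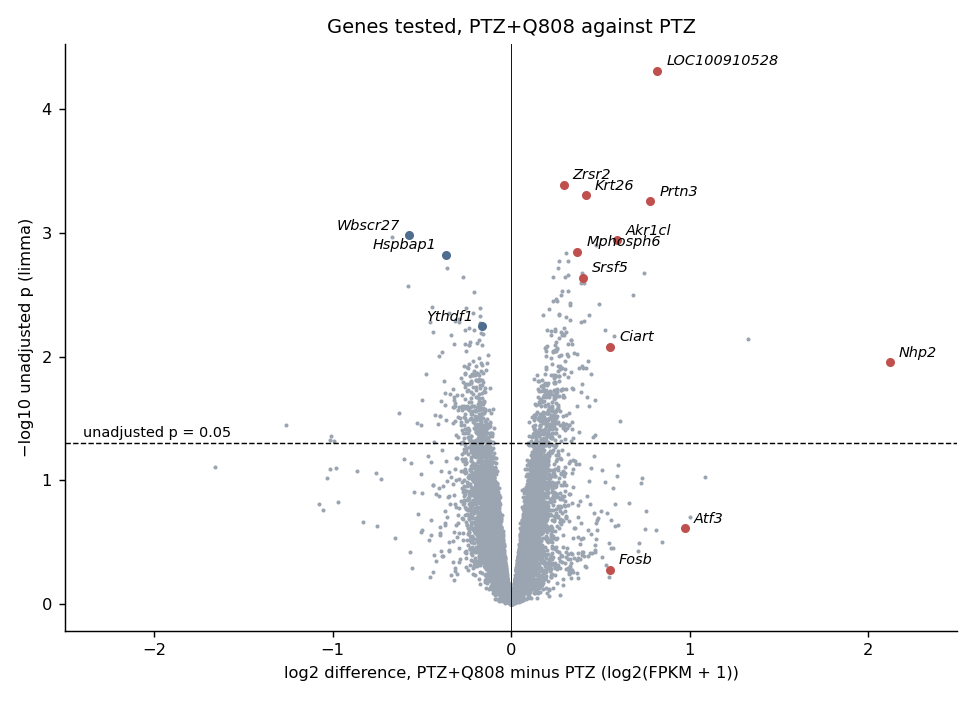
Log2 difference, PTZ+Q808 minus PTZ, on the x axis and −log10 of the unadjusted limma p on the y axis for the 12446 genes tested (grey dots), with 14 genes labelled (red higher, blue lower in PTZ+Q808). The dashed line marks an unadjusted p of 0.05, which 703 genes pass, and none passes the limma test after adjustment.

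Among 22 granulocyte genes, a list put together after values were seen, 3 lay wholly above PTZ and 0 wholly below. Of all genes tested, 0.45% lay wholly above and 0.329% wholly below. The 3 were Mpo, Elane and Cebpe, none of which met the level at which genes were tested. Of the 6318 genes above 0 that also did not meet it, 23 lay wholly above and 14 wholly below. Since the list was chosen after the values, the count is a description only. Of the 22, 14 had a higher and 8 a lower mean in PTZ+Q808, and 5 were tested. With PTZ replicate 1 set aside, 4 lay wholly above PTZ, and the share over all genes was not counted in that setting. Developing granulocytes in bone marrow make myeloperoxidase (Mpo), neutrophil elastase (Elane) and proteinase 3 (Prtn3) for storage in azurophilic granules, while mature neutrophils have largely stopped transcribing them. C/EBP epsilon (Cebpe) is a transcription factor of granulocyte maturation. PU.1, a leading regulator of the myeloid lineage, binds sequences built on the core GAGGAA, and promoters of Mpo, Cebpe and Prtn3 are shown, since the first 2 did not overlap between groups and Prtn3 had the smallest p of those tested. Each is the 250 bases before the annotated start in RefSeq's GRCr8 assembly, written 5′ to 3′ on the strand of the gene, with GAGGAA on either strand in capitals. The sources used here do not name the assembly behind the deposited values.
Mpo (chr10:73092152-73092401, plus strand): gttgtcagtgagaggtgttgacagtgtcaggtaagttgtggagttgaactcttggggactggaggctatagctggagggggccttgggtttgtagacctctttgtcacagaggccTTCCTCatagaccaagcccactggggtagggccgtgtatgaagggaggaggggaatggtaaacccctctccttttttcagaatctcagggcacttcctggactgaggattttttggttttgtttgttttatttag
Prtn3 (chr7:10476197-10476446, minus strand): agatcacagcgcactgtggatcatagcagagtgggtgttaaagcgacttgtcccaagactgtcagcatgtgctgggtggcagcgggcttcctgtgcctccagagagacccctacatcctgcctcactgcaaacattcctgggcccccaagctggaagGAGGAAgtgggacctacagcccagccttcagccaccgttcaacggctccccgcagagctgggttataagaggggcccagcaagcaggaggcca
Cebpe (chr15:32141477-32141726, minus strand): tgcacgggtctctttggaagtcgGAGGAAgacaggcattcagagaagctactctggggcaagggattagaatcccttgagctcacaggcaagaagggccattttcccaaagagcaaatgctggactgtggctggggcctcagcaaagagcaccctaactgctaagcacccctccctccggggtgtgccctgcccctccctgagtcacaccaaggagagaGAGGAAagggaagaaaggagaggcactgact

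The core stood 1 time in the Mpo window, 135 bases before the start on the opposite strand, 1 time in Prtn3 at 93 bases, and at 227 and 31 bases in Cebpe. It was present in 23.3% of the 33469 windows of this length, and a match is a description of letters only.

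Mpo was listed at 0.552, 1.25, 1.06, 0.954 and 1.62 FPKM in PTZ+Q808 replicates 1 to 5, against 0.0756, 0, 0.0599, 0 and 0 FPKM in PTZ replicates 1 to 5. Every PTZ+Q808 library was higher than every PTZ library, and the controls were at 0.0188 to 0.075 FPKM. Elane was 0.194, 0.144, 0.186, 0.188 and 0.263 FPKM in PTZ+Q808 libraries, against 0.0621 in PTZ replicate 1 and 0 in the other PTZ libraries. These Elane values are only 2.32 to 4.23 times the smallest value listed for the gene in any library, and controls were listed at 0. Prtn3 was 1.23, 1.79, 1.84, 2.08 and 2.72 FPKM in PTZ+Q808 libraries, against 0.367, 0.564, 1.24, 0.448 and 0.943 FPKM in PTZ libraries, so the groups touched at 1.23 in PTZ+Q808 replicate 1 and 1.24 in PTZ replicate 3. Cebpe was 0.0693, 0.0771, 0.266, 0.0671 and 0.492 FPKM in PTZ+Q808 libraries and listed at 0 in every PTZ library, but reached 0.139 FPKM in a control library. These PTZ+Q808 values are 1.01 to 7.44 times the smallest value listed for the gene in any library, so the lowest of them lie at the floor.

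Other genes of immature granulocytes overlapped between the groups, but at values too low to show whether they shared the pattern. Ctsg, the cathepsin G gene, was listed at 0 in 2 PTZ+Q808 libraries and in every PTZ library, with at most 0.0367 FPKM in the others. Prss57 had a lower mean in PTZ+Q808 (1 library above 0, at 0.0366 FPKM) than in PTZ (3 libraries above 0, at 0.0303 to 0.0642 FPKM). Gfi1, a transcriptional repressor gene, and Ms4a3 were at 0.056 FPKM or less in every library of both groups. The highest PTZ+Q808 value was 1.06 times the smallest value listed for Ctsg, 1.21 times for Prss57, 1.01 times for Ms4a3 and 3.2 times for Gfi1. Cebpe, counted as wholly above PTZ, was also near its floor in PTZ+Q808 replicates 1, 2 and 4, at 0.0671 to 0.0771 FPKM. Its separation is limited in the same way.

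Prtn3 was the only one of Mpo, Elane, Prtn3 and Cebpe at the level tested. It passed that filter through PTZ+Q808, where 5 libraries were at 1 FPKM or more, against 1 PTZ library, so its test is no support for the others. It had a log2 difference of 0.78 ± 0.16 (SE, n = 5 each) and an adjusted p of 0.872 by limma. With no filter on low values, Mpo (log2 difference 1.00 ± 0.11) and Elane (0.24 ± 0.03) had the 2 smallest p of 18764 genes, each with an adjusted p of 0.0672. With no filter and a pseudocount of 0.1, a setting chosen after seeing the data, Mpo (3.20 ± 0.28, adjusted p = 0.00327) and Elane (1.41 ± 0.17, adjusted p = 0.0427) passed, and no other gene did. A pseudocount sets the size of such differences at low values, so they are not folds. Of the 6318 genes above 0 but under the filter, 23 lay wholly higher and 14 wholly lower in PTZ+Q808. Among the 12446 genes tested these counts were 56 and 41. Mpo, Elane and Cebpe were among the 23.

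Genes of mature neutrophils overlapped between the groups, and the difference from Mpo and Elane was not tested. S100a8 was 1.78, 2.84, 2.08, 0.74 and 0.646 FPKM in PTZ+Q808 libraries, against 4.27, 1.64, 1.81, 1.24 and 0.131 FPKM in PTZ libraries. S100a9, which encodes its partner subunit in calprotectin, was 2.73, 5.07, 8.44, 2.94 and 4.62 FPKM in PTZ+Q808 libraries, against 5.82, 2.61, 2.97, 2.17 and 0.208 FPKM in PTZ libraries (log2 difference 0.73 ± 0.40, adjusted p = 0.876). The highest PTZ value of both was in replicate 1. Without it the PTZ maximum of S100a9 was 2.97 FPKM, above 2 of the 5 PTZ+Q808 libraries, and that of S100a8 was 1.81 FPKM, above 3. Csf3r, the granulocyte colony-stimulating factor receptor, was 0.527 to 0.741 FPKM in PTZ+Q808 libraries and 0.681 to 0.888 FPKM in PTZ libraries, and Camp, a secondary granule peptide, was 0.203 to 0.779 and 0 to 1.01 FPKM in those groups. Mmp8, a secondary granule collagenase, was 0.191 to 0.528 FPKM in PTZ+Q808 libraries and 0 to 0.264 FPKM in PTZ libraries, and without PTZ replicate 1 its groups did not overlap (PTZ maximum 0.181 FPKM). The red cell and neutrophil marker list, 11 genes, had a higher mean in PTZ+Q808 for 9, and its summed FPKM was 671 to 4262 in PTZ+Q808 libraries and 973 to 3023 in PTZ libraries, mostly haemoglobin. Hbb was 192 to 1210 FPKM in PTZ+Q808 libraries and 281 to 1004 FPKM in PTZ libraries. In PTZ+Q808 replicate 5, where Mpo was highest, Hbb was lowest of the 10 libraries. In PTZ+Q808 replicate 2, where Mpo was next highest at 1.25 FPKM, Hbb was highest of the 10 libraries. In bulk tissue, more cells of a type and more RNA per cell cannot be told apart.

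**Figure D2:**
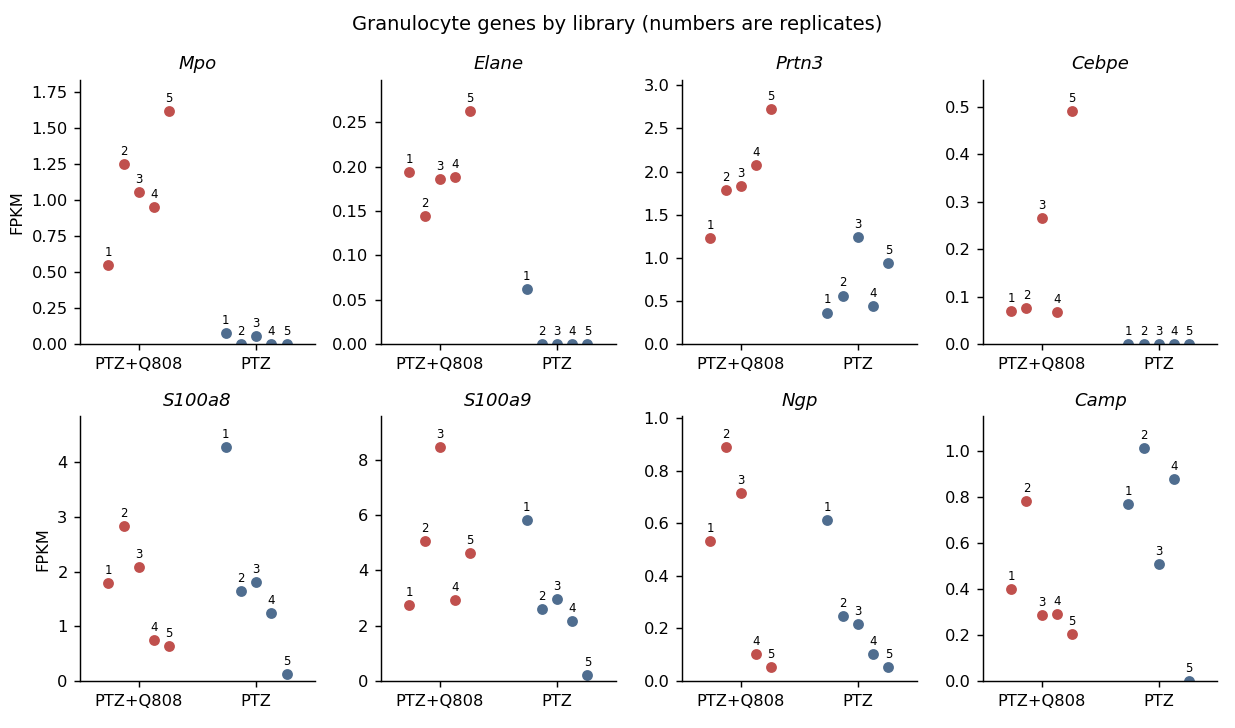
FPKM of 8 granulocyte genes in each PTZ+Q808 library (red, left) and PTZ library (blue, right), with linear y axes from 0 and replicate numbers above the points. Mpo, Elane and Cebpe do not overlap between groups, Prtn3 overlaps in 1 pair of libraries, and S100a8, S100a9, Ngp and Camp overlap.

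Among other genes under the filter, Il6, an inflammatory cytokine, was 0.112, 0.187, 0.215, 0.272 and 0.398 FPKM in PTZ+Q808 libraries and 0, 0.103, 0, 0 and 0 FPKM in PTZ libraries. The groups did not overlap, but controls reached 0.107 FPKM. Car9, a hypoxia-induced carbonic anhydrase, was 0.268 to 0.505 FPKM in PTZ+Q808 libraries and 0.0846 to 0.25 FPKM in PTZ libraries, with controls up to 0.7 FPKM. Tnfrsf25, a death receptor of lymphocytes, was at 0.633 to 0.887 FPKM in PTZ+Q808 libraries and 0.901 to 1.60 FPKM in PTZ libraries, with controls at 1.32 to 1.63 FPKM. These genes were chosen after their values were seen.

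Among tested genes the smallest p belonged to LOC100910528, annotated as similar to mitochondrial ribosomal protein L36. It was 3.87, 2.49, 1.85, 3.16 and 3.12 FPKM in PTZ+Q808 libraries, against 1.27, 1.28, 1.22, 1.12 and 0.992 FPKM in PTZ libraries (log2 difference 0.82 ± 0.13, adjusted p = 0.609), and controls were 0.92 to 2.23 FPKM. Without PTZ+Q808 replicate 3 its adjusted p was 0.0412, the only gene to pass there. Its near copy Mrpl36 was listed at 0 in all 10 libraries, and reads of the pair may have been assigned to either, so the value is uncertain. A placeholder symbol kept it out of the named genes, and it is given after its value was seen.

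The 12 named genes of smallest p in each direction did not pass either, with adjusted p of 0.872 for every one. The splice factor gene Zrsr2, which recognises the 3-prime splice site of minor introns, was 10.1, 10.7, 9.58, 10.2 and 10.2 FPKM in PTZ+Q808 libraries, against 8.21, 8.59, 7.21, 8.60 and 7.86 FPKM in PTZ libraries (log2 difference 0.29 ± 0.06). Every PTZ+Q808 library was higher, and the control mean was 8.02 ± 0.357 FPKM (SD, n = 4). Krt26, a keratin gene, was 3.43 to 4.45 FPKM in PTZ+Q808 libraries and 2.18 to 2.88 FPKM in PTZ libraries (0.42 ± 0.09). Akr1cl, an aldo-keto reductase gene, was 5.97 to 7.81 FPKM in PTZ+Q808 libraries and 2.89 to 5.30 FPKM in PTZ libraries (0.59 ± 0.14). Mphosph6, an exosome-associated RNA processing gene, Taf13, a subunit gene of the general transcription factor TFIID, Gtf2h2, a TFIIH subunit gene, Nsrp1, a splicing regulator gene, and Mtif2, the mitochondrial initiation factor gene, also lay wholly above PTZ, with log2 differences of 0.37, 0.32, 0.27, 0.40 and 0.32. Ccdc90b (0.31) and Tceal1 (0.26) did so as well, while Ndufa10l1 (0.75), a complex I subunit-like gene whose near copy Ndufa10 differed by 0.07, overlapped.

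In the other direction, Wbscr27 was 3.54, 4.88, 4.94, 5.73 and 4.37 FPKM in PTZ+Q808 libraries, against 7.96, 5.31, 8.10, 8.77 and 7.34 FPKM in PTZ libraries (log2 difference -0.57 ± 0.13). Only PTZ replicate 2 was in the range of the PTZ+Q808 libraries. Hspbap1, a gene for a heat shock protein-associated protein, was 1.97 to 2.83 FPKM in PTZ+Q808 libraries and 3.12 to 4.01 FPKM in PTZ libraries (-0.37 ± 0.09). Ackr1, the atypical chemokine receptor gene of red cells, venules and Purkinje neurons, was 16.0 to 20.4 FPKM in PTZ+Q808 libraries and 20.6 to 24.5 FPKM in PTZ libraries (-0.27 ± 0.07). Ciapin1 (-0.17), Bahd1 (-0.21) and Zfp394 (-0.32) also lay wholly below PTZ. Npc1, the lysosomal cholesterol transporter gene, was 12.02 to 17.2 FPKM in PTZ+Q808 libraries and 15.8 to 20.9 FPKM in PTZ libraries (-0.35 ± 0.10) and overlapped, as did Osbp2 (-0.21), Lingo3 (-0.44), Pcsk6 (-0.25), Stau1 (-0.17) and Hs1bp3 (-0.29).

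Nhp2, a gene for a subunit of box H/ACA small nucleolar ribonucleoproteins, had the largest difference among tested genes whose groups did not overlap. It was 1.37, 33.2, 16.0, 1.48 and 22.3 FPKM in PTZ+Q808 libraries, against 0.926 to 1.33 FPKM in PTZ libraries (log2 difference 2.12 ± 0.70, adjusted p = 0.872). Replicates 1 and 4 of PTZ+Q808 were at the PTZ level, and 1 control library was at 15.1 FPKM. LOC103690013, annotated as the same subunit, was listed at 0 in every library. How reads were assigned between the copies was not tested, so the Nhp2 values are uncertain. The other non-overlapping genes of largest difference included Hmgb2 (log2 difference 0.40), a chromatin protein gene, Pdcl2 (0.39), at 1 FPKM or more in 5 PTZ+Q808 libraries and 1 PTZ library, and Cutc (0.33) on the higher side, and Lmod1 (-0.32), a smooth muscle actin-binding protein gene, Nfya (-0.24), a CCAAT-binding factor gene, Wdcp (-0.23) and Ell (-0.22), an elongation factor gene, on the lower side. None passed the test.

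Immediate early genes did not separate the groups, and varied more between animals than between treatments. Of the 45 genes listed, 44 were tested. 29 had a higher and 15 a lower mean in PTZ+Q808, 0 had an unadjusted p under 0.05, and none lay wholly to 1 side. The median log2 difference of the list was 0.14, against -0.0046 over all genes tested. With 1 library left out at a time that median ran from 0.02, without PTZ+Q808 replicate 5, to 0.34, without PTZ replicate 4.

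Fos, encoding a subunit of the AP-1 transcription factor, was 127, 38.2, 126, 27.0 and 142 FPKM in PTZ+Q808 replicates 1 to 5, against 62.8, 43.2, 113, 175 and 38.8 FPKM in PTZ replicates 1 to 5 (log2 difference 0.04 ± 0.54, 95% interval -1.16 to 1.23, adjusted p = 0.995 by limma). Each group held high and low libraries, and even the lowest exceeded the control mean of 16.2 ± 5.36 FPKM (SD, n = 4). Npas4, a neuronal activity-dependent transcription factor gene, was 61.6, 15.6, 48.6, 6.64 and 56.9 FPKM in PTZ+Q808 libraries, against 22.7, 21.6, 55.8, 62.4 and 12.4 FPKM in PTZ libraries (log2 difference -0.04 ± 0.62). Arc, a regulator of AMPA receptor trafficking, was 146, 33.1, 124, 47.8 and 188 FPKM in PTZ+Q808 libraries, against 71.9, 58.8, 146, 235 and 45.2 FPKM in PTZ libraries (log2 difference -0.06 ± 0.55). The same libraries were high for all 3 genes, namely replicates 1, 3 and 5 of PTZ+Q808 and replicates 3 and 4 of PTZ. Egr1 (log2 difference 0.14 ± 0.44), a zinc finger factor gene, and Nr4a1 (-0.04 ± 0.41), an orphan nuclear receptor gene, were high in the same libraries. The signs of the Fos, Npas4, Arc, Egr1 and Nr4a1 differences turned when single libraries were left out.

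A smaller set of induced genes set PTZ replicate 3 apart from PTZ replicate 4. Atf3, a stress-induced transcription factor gene, was 24.5, 3.79, 29.1, 1.98 and 40.2 FPKM in PTZ+Q808 libraries, against 4.99, 3.25, 3.86, 28.7 and 3.24 FPKM in PTZ libraries (log2 difference 0.97 ± 0.79, adjusted p = 0.902). Ptgs2, encoding the inducible cyclooxygenase, was 69.7, 9.24, 75.3, 11.7 and 85.5 FPKM in PTZ+Q808 libraries, against 11.7, 11.5, 21.3, 107 and 12.5 FPKM in PTZ libraries (0.71 ± 0.76). Bdnf, the neurotrophin gene, was 14.5, 5.59, 17.2, 4.91 and 19.5 FPKM in PTZ+Q808 libraries, against 4.71, 4.56, 5.01, 22.2 and 5.74 FPKM in PTZ libraries (0.58 ± 0.46). For these genes 3 PTZ+Q808 libraries and 1 PTZ library were high. PTZ replicate 3, high in Fos, Npas4 and Arc, was not among them. Fosb (0.55 ± 0.85), Rgs2 (0.58 ± 0.38), a G protein signalling regulator gene, and Gadd45g (0.60 ± 0.47) had wide intervals of the same kind. Cyr61, a secreted matrix protein gene, had the lowest log2 difference of the list (-0.35 ± 0.37), and Apold1, an endothelial early gene, was lower in mean (-0.20 ± 0.27).

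**Figure D3:**
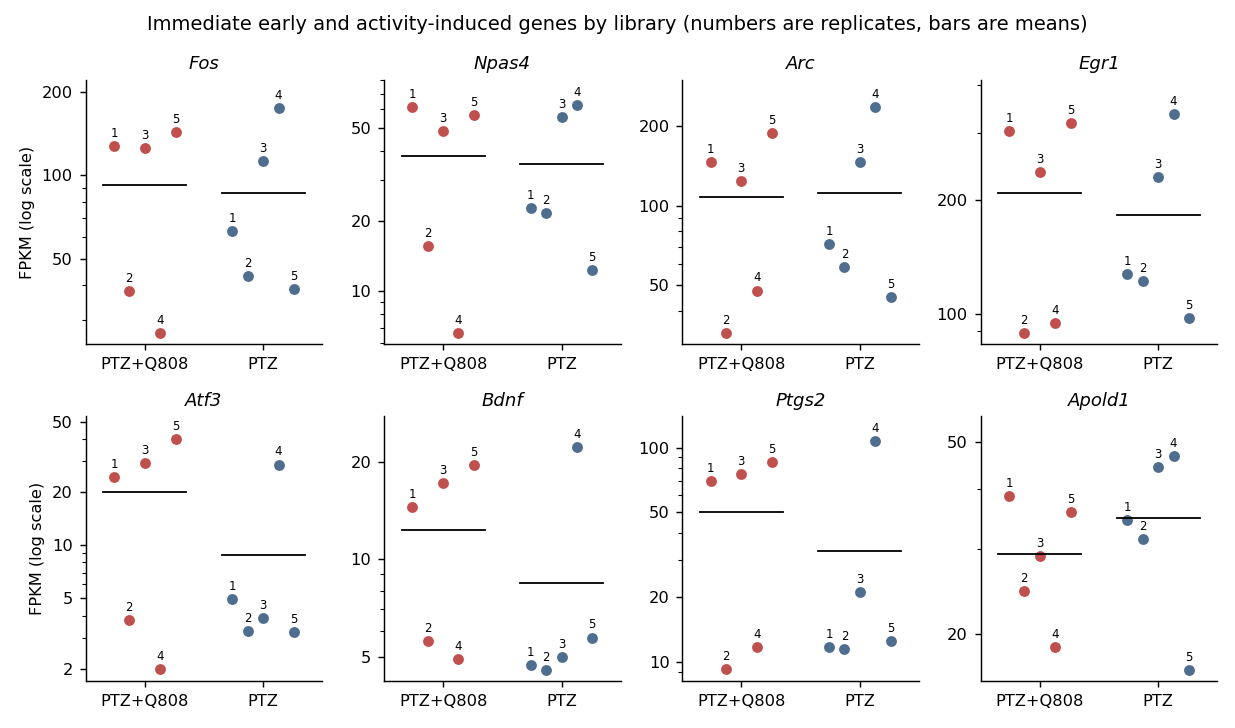
FPKM on log axes of 8 activity-induced genes in each PTZ+Q808 library (red, left) and PTZ library (blue, right), with replicate numbers and a bar at each group mean. PTZ+Q808 replicates 1, 3 and 5 and PTZ replicate 4 are the 4 highest for Atf3, Bdnf and Ptgs2, PTZ replicate 3 joins them for Fos, Npas4, Arc and Egr1, and PTZ+Q808 replicates 2 and 4 are among the 3 lowest for those 4 genes.

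Both PTZ+Q808 libraries without Y-linked transcripts and both PTZ libraries without them were high in Fos, while of the libraries with Y-linked transcripts only PTZ+Q808 replicate 1 was. Mean Fos was 134 FPKM in PTZ+Q808 and 144 FPKM in PTZ libraries without Y-linked transcripts, and 64.2 FPKM in PTZ+Q808 and 48.3 FPKM in PTZ libraries with them. Mean Atf3 was 34.6 FPKM in PTZ+Q808 and 16.3 FPKM in PTZ libraries without them, and 10.1 and 3.83 FPKM in the PTZ+Q808 and PTZ libraries with them. Sex was not given in the labels, each subset holds 2 or 3 libraries a group, and its part in these values was not tested.

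Likeness to Fos was measured as Pearson's r of log2 values over the 10 libraries after subtracting the group means, and is a description without a test. The libraries share their animal and its dissection, so any property of the sample raises r. Arl4d, a small GTPase gene, and Junb, an AP-1 subunit gene, were most like Fos (r = 0.984 each), followed by Nr4a1 (0.981), Egr2 (0.98), Egr4 (0.978), Egr1 (0.977) and Fosb (0.977). Of the 43 other immediate early genes tested, 35 had r over 0.8 and 1, Cyr61, was under 0. The promoters of Junb, Nr4a1 and Npas4 are shown because these genes were like Fos across animals, with capitals marking TGACG on either strand, part of the cAMP response element to which the activity-regulated factor CREB binds.
Nr4a1 (chr7:134259888-134260137, plus strand): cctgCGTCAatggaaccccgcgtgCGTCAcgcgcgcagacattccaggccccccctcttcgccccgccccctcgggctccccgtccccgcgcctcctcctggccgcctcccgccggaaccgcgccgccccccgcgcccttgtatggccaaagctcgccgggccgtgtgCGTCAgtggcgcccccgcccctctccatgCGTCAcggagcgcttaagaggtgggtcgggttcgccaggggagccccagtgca
Junb (chr19:40080876-40081125, plus strand): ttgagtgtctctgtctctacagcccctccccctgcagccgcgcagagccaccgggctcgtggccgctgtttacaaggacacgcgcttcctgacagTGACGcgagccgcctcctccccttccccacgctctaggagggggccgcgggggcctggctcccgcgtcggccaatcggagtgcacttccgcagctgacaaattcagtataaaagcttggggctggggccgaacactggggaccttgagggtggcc
Npas4 (chr1:211716103-211716352, minus strand): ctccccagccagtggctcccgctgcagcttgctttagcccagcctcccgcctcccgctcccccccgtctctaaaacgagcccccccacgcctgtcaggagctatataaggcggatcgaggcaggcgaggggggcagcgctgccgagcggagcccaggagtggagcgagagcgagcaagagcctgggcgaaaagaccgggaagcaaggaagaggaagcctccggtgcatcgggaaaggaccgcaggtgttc

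TGACG or its complement stood at 4 places in the Nr4a1 window, 246, 226, 82 and 53 bases before the start, and at 1 place in the Junb window, 155 bases before it. The Npas4 window held none. It was present in 18.2% of all windows. None of these windows held the full element TGACGTCA, found in 1.59% of windows, or a CArG box, the serum response element core, found in 1.5%.

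Of 24 delayed activity-regulated genes, 22 were tested, 14 higher and 8 lower in mean, with a median log2 difference of 0.04. Only Spry4, a feedback inhibitor gene of receptor tyrosine kinase signalling, reached an unadjusted p under 0.05, at 3.10 to 4.77 FPKM in PTZ+Q808 libraries and 3.98 to 5.91 FPKM in PTZ libraries (-0.30 ± 0.12, adjusted p = 0.872). Rasgrp1 (-0.16) and Acan (-0.17) were lower in mean. Among 14 neuropeptide genes tested, 10 were higher and 4 lower in mean (median 0.06). Cartpt, encoding the CART peptide, was 10.1, 8.06, 9.24, 9.62 and 14.6 FPKM in PTZ+Q808 libraries, against 5.62, 6.55, 5.45, 8.92 and 7.68 FPKM in PTZ libraries (0.52 ± 0.16, adjusted p = 0.872). Only PTZ replicate 4 reached into the PTZ+Q808 range, and the control mean was 8.46 ± 2.78 FPKM (SD, n = 4). Gal (0.29 ± 0.17) and Pnoc (0.15 ± 0.10) were also higher in mean.

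GABA-A receptor subunit and anchoring genes, whose products PTZ acts on or which hold them at the synapse, were slightly higher in mean. Of 22 listed genes 15 were tested, 12 higher and 3 lower in PTZ+Q808, with a median log2 difference of 0.07, or 0.12 without PTZ+Q808 replicate 2. 4 had an unadjusted p under 0.05, all higher, where 2.98% of all genes did so, and none lay wholly above PTZ. Gabrb2, a beta subunit gene, was 26.01, 21.01, 24.3, 23.5 and 21.3 FPKM in PTZ+Q808 libraries, against 18.7, 20.8, 20.5, 20.1 and 21.4 FPKM in PTZ libraries (0.18 ± 0.07, adjusted p = 0.872). Only PTZ replicate 5 overlapped. Gabrg1 (0.27 ± 0.09), a subunit found mostly in astrocytes and a few neuron types, and Gabra2 (0.24 ± 0.10), a subunit of the axon initial segment, had the largest differences of the list on the higher side. The control mean of Gabrb2 was 15.04 ± 2.41 FPKM (SD, n = 4), under both groups. Gabrd, the delta subunit of extrasynaptic receptors on dentate granule cells, was 14.6 to 20.7 FPKM in PTZ+Q808 libraries and 16.4 to 28.7 FPKM in PTZ libraries (-0.26 ± 0.16).

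Genes of GABA synthesis, transport and breakdown, of chloride transport and of GABA-B receptors were evenly split, 7 higher and 7 lower of 14 tested, with a median of -0.0014 and none at an unadjusted p under 0.05. Gad1, the main GABA-synthesising enzyme gene, was 76.2 to 85.7 FPKM in PTZ+Q808 libraries and 77.8 to 87.0 FPKM in PTZ libraries (-0.0049 ± 0.05). Slc12a5, the neuronal chloride extruder gene, averaged 95.4 FPKM in PTZ+Q808 and 99.3 FPKM in PTZ libraries. Clcn2, a chloride channel gene, had the lowest log2 difference (-0.45 ± 0.34) and a wide spread, 0.792 to 4.62 FPKM in PTZ+Q808 libraries and 1.72 to 6.76 FPKM in PTZ libraries.

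Glutamate receptor genes showed no shared direction. AMPA receptor subunit and auxiliary genes were 14 higher and 5 lower of 19 tested (median 0.02), with only Cnih3, an auxiliary cornichon gene, at an unadjusted p under 0.05, at 38.3 to 43.9 FPKM in PTZ+Q808 libraries and 36.0 to 40.3 FPKM in PTZ libraries (0.13 ± 0.05, adjusted p = 0.872). Gria1 was 123 to 151 FPKM in PTZ+Q808 libraries and 129 to 178 FPKM in PTZ libraries (-0.12 ± 0.09). NMDA receptor and scaffold genes were 4 higher and 7 lower of 11 (median -0.03). Grin2a, a postnatal NMDA receptor subunit gene, was 13.7 to 26.4 FPKM in PTZ+Q808 libraries and 16.5 to 31.5 FPKM in PTZ libraries (-0.23 ± 0.19). Kainate and metabotropic receptor genes were 6 higher and 8 lower of 14 (median -0.02). Grm4 was 4.05 to 7.93 FPKM in PTZ+Q808 libraries and 5.84 to 17.2 FPKM in PTZ libraries (-0.44 ± 0.25), and the 17.2 was PTZ replicate 1, the library with cerebellar transcripts. Without it the log2 difference was -0.20. Of 16 glutamate transport and glutamine cycle genes, Slc17a6, a vesicular glutamate transporter gene of subcortical neurons, was higher in mean (0.31 ± 0.13) and Slc38a2, a glutamine transporter gene, was lower in mean (-0.18 ± 0.07), both at an unadjusted p under 0.05.

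Ion channel lists, which hold targets of several antiseizure drugs, had medians below that of all genes, and PTZ+Q808 replicate 2 had the lowest mean of all 3 lists among the 10 libraries. Voltage-gated sodium channel genes were 5 higher and 6 lower of 11 tested (median -0.08), calcium channel genes 5 higher and 10 lower of 15 (median -0.04), and potassium and HCN channel genes 9 higher and 23 lower of 32 (median -0.07), while 48.2% of all genes tested were higher. Without PTZ+Q808 replicate 2 these medians were 0.016 for sodium, -0.011 for calcium and -0.019 for potassium and HCN channel genes. Scn1a, the sodium channel gene of inhibitory interneurons, was 4.66 to 9.42 FPKM in PTZ+Q808 libraries and 5.39 to 9.63 FPKM in PTZ libraries (-0.10 ± 0.19). Scn2a (0.04 ± 0.10) and Cacna1g, a T-type calcium channel gene (-0.10 ± 0.13), likewise did not separate. Cacna2d1, the gabapentin-binding subunit gene, was 36.5, 33.1, 37.6, 33.0 and 39.2 FPKM in PTZ+Q808 libraries, against 26.9, 33.2, 27.2, 36.3 and 32.7 FPKM in PTZ libraries (0.20 ± 0.09, adjusted p = 0.876). Fgf12 (0.20 ± 0.08), an intracellular modulator of sodium channels, was higher in mean. Kcna4, an A-type potassium channel gene, was 6.71, 4.67, 6.72, 4.80 and 6.67 FPKM in PTZ+Q808 libraries, against 4.35, 4.84, 4.03, 4.65 and 4.16 FPKM in PTZ libraries (0.34 ± 0.11, adjusted p = 0.872). The high libraries were PTZ+Q808 replicates 1, 3 and 5, the libraries of that group high in Fos. PTZ replicates 3 and 4, also high in Fos, were not high in Kcna4, at 4.03 and 4.65 FPKM. Kcnj9, a G protein-gated inward rectifier gene, was 30.3 to 39.0 FPKM in PTZ+Q808 libraries and 37.4 to 41.3 FPKM in PTZ libraries (-0.20 ± 0.07).

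Genes of the synaptic vesicle cycle were 7 higher and 18 lower of 25 tested (median -0.03), with none at an unadjusted p under 0.05. PTZ+Q808 replicate 2 again had the lowest mean of the 10 libraries, and without it the median was -0.00061. Sv2a, the binding protein of levetiracetam, was 133, 124, 125, 129 and 121 FPKM in PTZ+Q808 libraries, against 124, 130, 134, 129 and 131 FPKM in PTZ libraries (log2 difference -0.04 ± 0.04, 95% interval -0.13 to 0.06). Snap25, a membrane fusion protein gene, was 754 to 916 FPKM in PTZ+Q808 libraries and 631 to 813 FPKM in PTZ libraries (0.12 ± 0.08). Other drug target genes were 6 higher and 5 lower of 11 (median 0.01). Adora1, the inhibitory adenosine A1 receptor gene, was 62.4, 64.9, 49.0, 70.0 and 65.4 FPKM in PTZ+Q808 libraries, against 69.6, 69.1, 70.0, 69.3 and 75.1 FPKM in PTZ libraries (-0.19 ± 0.08, adjusted p = 0.876). The lowest value was in PTZ+Q808 replicate 3. Drug-metabolising enzyme and efflux transporter genes, which many drugs induce in liver, were 6 higher and 8 lower of the 14 tested (median -0.02). Abcb1a, the P-glycoprotein gene of the blood-brain barrier, was 4.13 to 6.39 FPKM in PTZ+Q808 libraries and 4.75 to 6.36 FPKM in PTZ libraries (-0.03 ± 0.12). 17 of the 31 listed genes were under the filter.

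Among circadian clock genes, 3 output genes had a higher mean in PTZ+Q808, though none passed after adjustment. In the clock, CLOCK and BMAL1 (gene Arntl) bind E-boxes with the core CACGTG and drive repressors and output genes such as Ciart, Dbp and Nr1d2, and the receptors REV-ERB and ROR act on Arntl through elements with the core AGGTCA. The promoters of the 3 output genes are shown because each had an unadjusted p under 0.05, with CACGTG and AGGTCA on either strand in capitals.
Ciart (chr2:186112247-186112496, minus strand): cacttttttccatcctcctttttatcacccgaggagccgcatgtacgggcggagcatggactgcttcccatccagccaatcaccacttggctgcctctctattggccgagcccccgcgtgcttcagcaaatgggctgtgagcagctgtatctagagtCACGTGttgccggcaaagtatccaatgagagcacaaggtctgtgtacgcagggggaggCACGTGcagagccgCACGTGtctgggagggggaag
Dbp (chr1:105312006-105312255, plus strand): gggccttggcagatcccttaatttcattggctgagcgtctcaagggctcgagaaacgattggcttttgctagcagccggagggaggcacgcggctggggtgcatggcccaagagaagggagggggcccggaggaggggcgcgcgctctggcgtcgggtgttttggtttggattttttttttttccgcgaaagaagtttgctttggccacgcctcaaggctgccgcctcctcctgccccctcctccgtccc
Nr1d2 (chr15:9954784-9955033, plus strand): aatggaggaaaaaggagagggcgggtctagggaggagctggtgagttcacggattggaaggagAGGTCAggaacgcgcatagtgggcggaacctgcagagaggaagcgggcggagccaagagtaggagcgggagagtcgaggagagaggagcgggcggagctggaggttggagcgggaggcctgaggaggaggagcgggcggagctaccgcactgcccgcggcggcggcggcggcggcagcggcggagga

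The Ciart window held 3 E-box cores, 93, 35 and 21 bases before the start, where 5.59% of all windows held any. The Nr1d2 window held AGGTCA at 187 bases, as 14.1% of windows did, and no CACGTG. The Dbp window held neither within these 250 bases.

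Ciart, a repressor gene of the clock, was 13.5, 7.41, 8.80, 7.57 and 11.8 FPKM in PTZ+Q808 libraries, against 4.88, 5.52, 7.54, 8.02 and 5.47 FPKM in PTZ libraries (log2 difference 0.56 ± 0.17, unadjusted p = 0.00834 and adjusted p = 0.872 by limma). The groups overlapped at 7.41 to 8.02 FPKM. Dbp, encoding a D-box activator, was 54.8, 54.2, 44.9, 59.1 and 52.8 FPKM in PTZ+Q808 libraries, against 38.1, 42.4, 48.9, 47.8 and 39.9 FPKM in PTZ libraries (0.29 ± 0.09, adjusted p = 0.872). PTZ+Q808 replicate 3 was the only library of its group within the PTZ range. Nr1d2, encoding the REV-ERB beta receptor, was 16.9, 14.4, 14.5, 16.6 and 16.1 FPKM in PTZ+Q808 libraries, against 13.2, 14.0, 14.3, 14.3 and 13.8 FPKM in PTZ libraries (0.16 ± 0.06, adjusted p = 0.872). Its groups did not overlap. Arntl was lower in mean, at 10.8, 9.89, 10.99, 10.4 and 9.12 FPKM in PTZ+Q808 libraries, against 12.1, 12.3, 12.5, 10.7 and 10.9 FPKM in PTZ libraries (-0.18 ± 0.07, adjusted p = 0.872), and Cry1, a repressor gene, was lower in mean (-0.17 ± 0.08).

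Of the 20 clock genes, all tested, 13 were higher and 7 lower in mean (median 0.05), 3 were higher and 1 lower at an unadjusted p under 0.05, against 2.98% and 2.67% of all genes, and 1, Nr1d2, lay wholly above PTZ, against 0.45%. Counts this small in 20 genes are given as a description. With 1 library left out the median ran from 0.0070, without PTZ replicate 1, to 0.09, without PTZ+Q808 replicate 2. Per1, which seizures also induce, was 20.7, 11.3, 24.0, 10.7 and 22.9 FPKM in PTZ+Q808 libraries, against 11.1, 10.6, 14.1, 26.7 and 13.4 FPKM in PTZ libraries (0.23 ± 0.28). Its high libraries were those high in Atf3. Nr1d1 (0.05 ± 0.08), Per2 (-0.08 ± 0.14), Per3 (0.08 ± 0.14), Clock (-0.05 ± 0.07), Tef (-0.07 ± 0.07) and Hlf (0.02 ± 0.09) did not separate. The sources used here do not give the time of day of sampling, and its part in these values was not tested. Over the 19 alternatives in which named genes were recorded, the Ciart difference stayed between 0.44 and 0.64, and its smallest adjusted p was 0.446. Further alternatives were run without recording it.

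**Figure D4:**
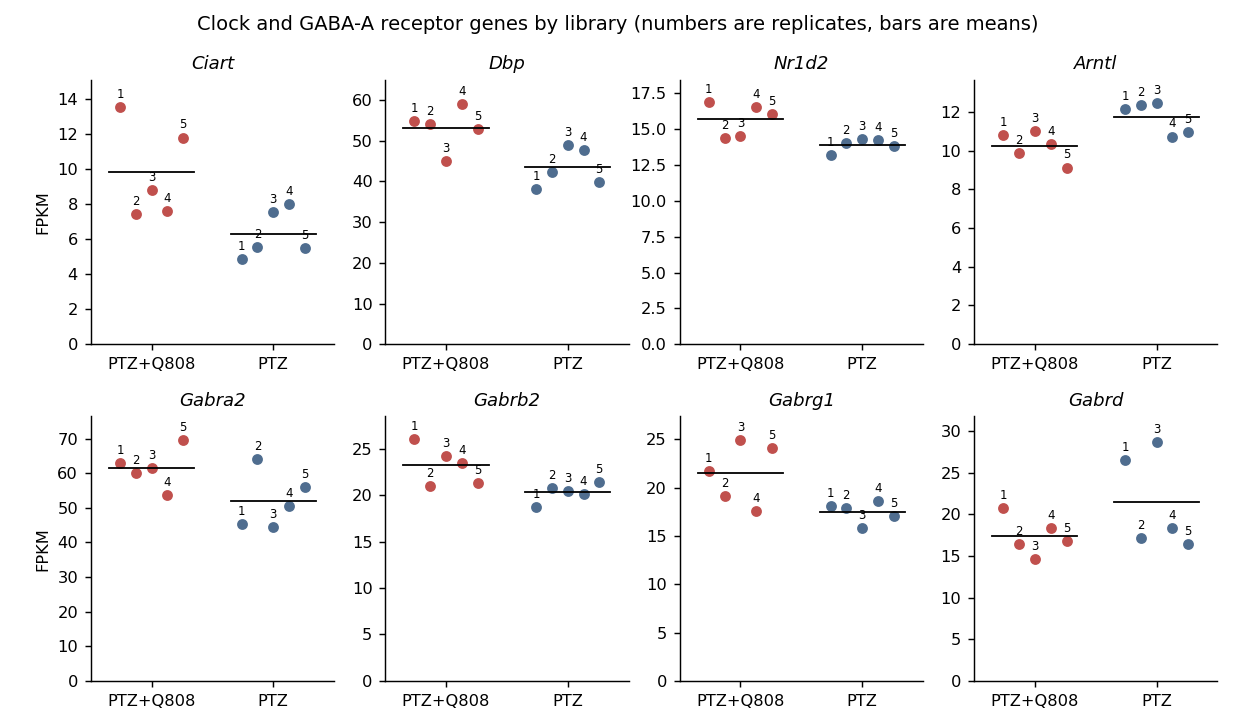
FPKM of 4 clock genes (top) and 4 GABA-A receptor subunit genes (bottom) in each PTZ+Q808 library (red, left) and PTZ library (blue, right), with replicate numbers, a bar at each group mean and linear y axes from 0. Nr1d2 does not overlap between the groups, Arntl and Gabrd are lower in mean, and the other 5 are higher in mean with 1 or more overlapping libraries.

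Inflammatory signalling genes showed little difference. Of 30 NF-kB, cytokine and innate signalling genes, 17 were tested, 9 higher and 8 lower (median 0.00051), and only Vcam1, an endothelial adhesion molecule gene, reached an unadjusted p under 0.05, at 10.8 to 12.8 FPKM in PTZ+Q808 libraries and 10.5 to 11.8 FPKM in PTZ libraries (0.13 ± 0.06, adjusted p = 0.876). Nfkbia, the NF-kB inhibitor gene, was 25.8 to 35.4 FPKM in PTZ+Q808 libraries and 24.6 to 35.8 FPKM in PTZ libraries, with controls at 15.6 ± 2.64 FPKM (SD, n = 4). Interferon response genes were 4 higher and 15 lower of 19 tested (median -0.11). Irf9, a subunit gene of the interferon-activated factor ISGF3, was 4.24 to 6.42 FPKM in PTZ+Q808 libraries and 6.10 to 8.78 FPKM in PTZ libraries (-0.31 ± 0.12, adjusted p = 0.872), and Irf7 was 1.80 to 8.77 FPKM in PTZ+Q808 libraries and 3.17 to 9.78 FPKM in PTZ libraries (-0.40 ± 0.35). Without PTZ replicate 1, in which the summed level of this list was 286 FPKM, the list's median was -0.0027, and without PTZ replicate 3 it was -0.20. Glucocorticoid-induced genes were 10 higher and 11 lower of 21 (median -0.03). Mt1, a metallothionein gene, was 76.5, 43.1, 66.6, 28.6 and 113 FPKM in PTZ+Q808 libraries, against 29.9, 33.5, 45.7, 46.2 and 40.8 FPKM in PTZ libraries (0.60 ± 0.30, adjusted p = 0.876), and its 3 highest libraries were PTZ+Q808 replicates 1, 3 and 5.

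Stress response and metabolic genes were also close between the groups. Nrf2 target and antioxidant genes were 18 higher and 9 lower of 27 (median 0.05). Sod1, the cytosolic superoxide dismutase gene, was 220, 306, 292, 264 and 276 FPKM in PTZ+Q808 libraries, against 233, 210, 248, 256 and 227 FPKM in PTZ libraries (0.20 ± 0.09, adjusted p = 0.872), and Gsta4, a glutathione transferase gene, was 12.7 to 33.3 and 13.5 to 19.0 FPKM in those groups (0.45 ± 0.23). Heat shock and unfolded protein response genes were 8 higher and 14 lower of 22 (median -0.02), with none at an unadjusted p under 0.05 and Hspb1 lowest (-0.50 ± 0.27). Apoptosis and p53 target genes were 10 higher and 7 lower of 17 (median 0.01), with 1 at an unadjusted p under 0.05. Cholesterol synthesis genes were 11 higher and 10 lower of 21 (median 0.0016), and PI3K, mTOR and MAP kinase genes 8 higher and 13 lower of 21 (median -0.03), with none of either list at an unadjusted p under 0.05.

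Nuclear genes of oxidative phosphorylation were 30 higher and 17 lower of 47 (median 0.01). Ndufb3, a complex I subunit gene, was 88.0 to 124 FPKM in PTZ+Q808 libraries and 75.2 to 99.0 FPKM in PTZ libraries (0.26 ± 0.10), and Uqcrb, a complex III subunit gene, was 41.7 to 58.5 and 34.6 to 46.6 FPKM in those groups (0.25 ± 0.11), both with an adjusted p of 0.872. The highest of both genes was PTZ+Q808 replicate 2. Ndufa1 was 3.45 to 4.14 FPKM in PTZ+Q808 libraries, against 4.63, 2.79, 4.33, 25.3 and 28.2 FPKM in PTZ libraries and up to 78.0 FPKM in a control library. It has a near copy in the files, and its values fall at separate low and high levels, so it is uncertain. Mitochondrial translation genes were 12 higher and 11 lower of 23 (median 0.01), with Mtif2 (0.32 ± 0.08) and Mtrf1, a release factor gene (0.29 ± 0.11), higher in mean and Mtif3, another initiation factor gene (-0.27 ± 0.12), lower in mean, at an unadjusted p under 0.05. Over all genes tested, 2.98% were higher and 2.67% lower at that level. The highest Mtif3 value, 9.40 FPKM, was in PTZ replicate 1, and the other PTZ libraries were at 6.99 to 7.52 FPKM. Minor spliceosome and 3-prime splice site genes were 16 higher and 6 lower of 22 (median 0.02), led by Zrsr2 and by Srsf5, a serine and arginine-rich splice factor gene. Srsf5 was 142, 165, 155, 115 and 161 FPKM in PTZ+Q808 libraries, against 105, 124, 108, 97.5 and 120 FPKM in PTZ libraries (0.40 ± 0.10, adjusted p = 0.872), and PTZ+Q808 replicate 4 alone was within the PTZ range. Its control mean was 88.5 ± 6.15 FPKM (SD, n = 4), below both groups. Of 26 mRNA transport and translational control genes, 12 were higher and 14 lower (median -0.03). Ythdf1, a reader of m6A-modified mRNA, was 22.3, 23.1, 21.99, 25.02 and 23.3 FPKM in PTZ+Q808 libraries, against 27.3, 25.1, 25.6, 25.8 and 26.6 FPKM in PTZ libraries (-0.16 ± 0.05, adjusted p = 0.872), wholly lower, and Stau1, encoding the dendritic RNA transport protein Staufen, was 22.8 to 25.98 and 25.6 to 28.0 FPKM in those groups (-0.17 ± 0.05).

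Over the 45 lists with at least 5 tested members, medians ran from -0.14 to 0.38, and 5 lay outside the range from the 10th to the 90th percentile of all genes, -0.14 to 0.14. Those were the immediate early list (0.14) and marker lists of ependymal, meningeal, oligodendrocyte, and red cell and neutrophil genes. The range is of single genes, and medians over several genes tend to spread less, so it is a wide yardstick for them. Ependymal and cilia markers were higher in mean in 6 of 8 (median 0.17). Meningeal and fibroblast markers were higher in mean in 11 of 11 tested (median 0.21), with summed FPKM of 99.8 to 299 in PTZ+Q808 libraries and 96.9 to 362 in PTZ libraries. With 1 library left out their median ran from 0.02, without PTZ+Q808 replicate 3, to 0.54, without PTZ replicate 1. Myelinating oligodendrocyte markers were lower in mean in 10 of 12 (median -0.14), with summed FPKM of 2850 to 5434 in PTZ+Q808 libraries and 4028 to 6029 in PTZ libraries, and their median was -0.00019 without PTZ+Q808 replicate 3 and -0.24 without PTZ+Q808 replicate 4. Red cell and neutrophil markers had a median of 0.38 over 7 tested, 0.13 without PTZ+Q808 replicate 2 and 0.72 without PTZ+Q808 replicate 5. Pan-neuronal markers (median 0.04), interneuron markers (0.03), astrocyte markers (-0.0034) and microglia markers (0.02) were near the median of all genes. Among microglia genes Itgam, the CR3 integrin subunit gene shared with neutrophils, was 1.44 to 3.24 FPKM in PTZ+Q808 libraries and 2.43 to 4.14 FPKM in PTZ libraries (-0.41 ± 0.17, adjusted p = 0.872).

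**Figure D5:**
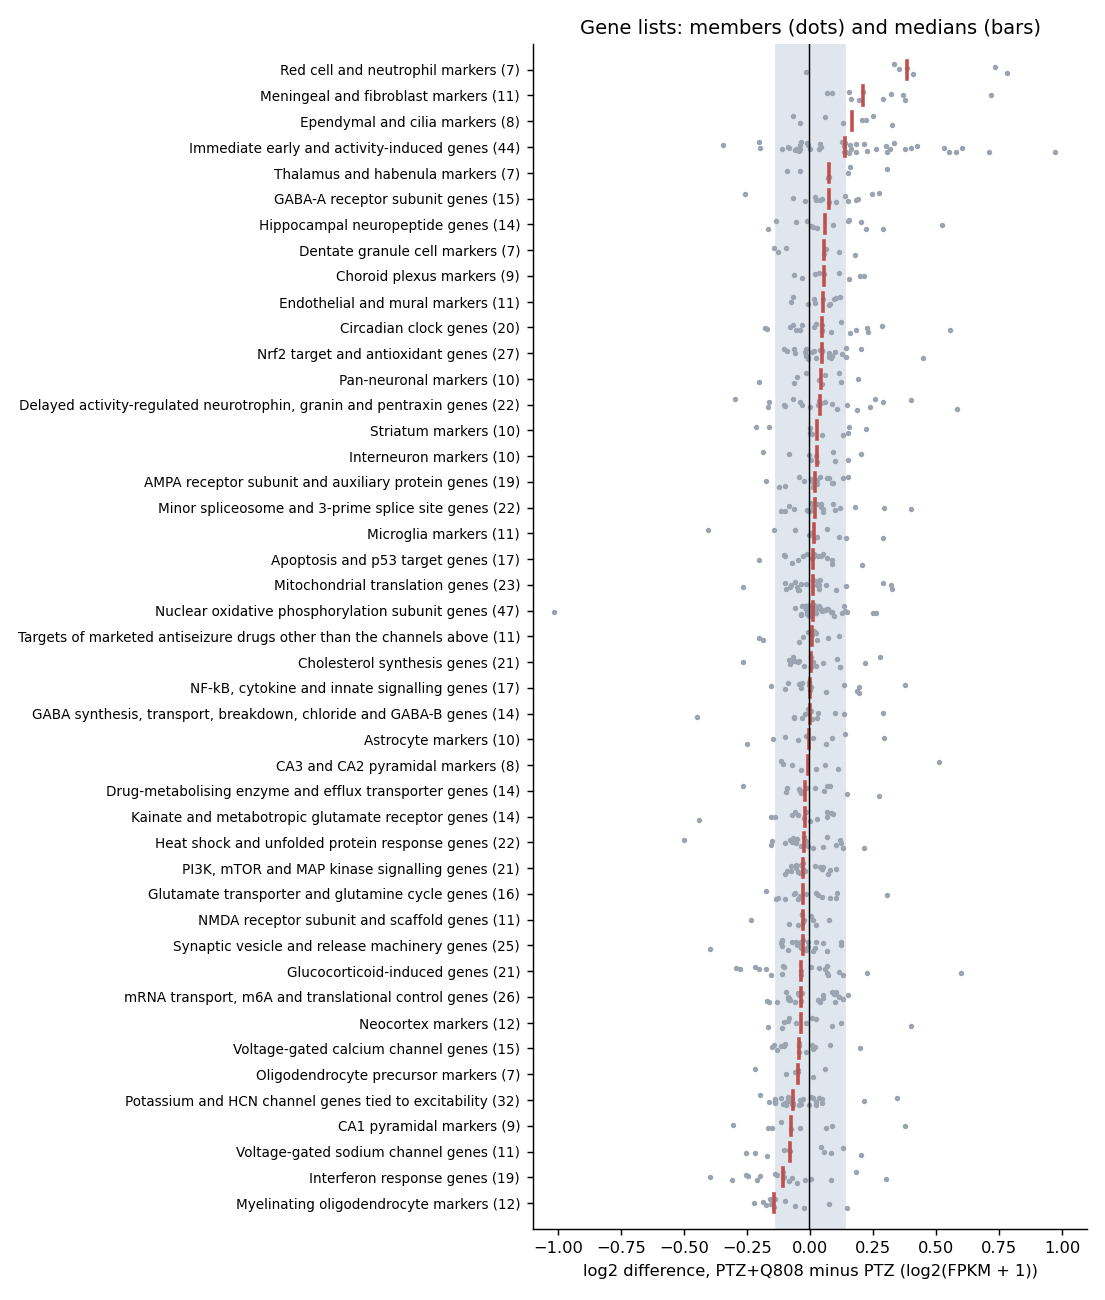
Log2 difference, PTZ+Q808 minus PTZ, of each tested member (grey dots) and the median (red bar) of the 45 gene and marker lists with at least 5 tested members, the number tested in brackets. The shaded band runs from the 10th to the 90th percentile of all 12446 genes and the black line is their median. All but 5 list medians lie within the band, which is of single genes and so a wide yardstick for medians.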

How the data were processed

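Total RNA from hippocampus of 14 rats was sequenced as poly(A)-captured libraries, per the labels' protocols. The authors deposited FPKM values for 22601 genes in each library, per the file headers. The submitters' processing notes list HISAT2, Bowtie2, SAMtools, StringTie, Cufflinks, HTSeq, DESeq and Trimmomatic, giving neither roles nor versions. The genome build and the total reads are not given in the sources used here, so depth is unknown and no counting interval is printed, and low values and genes with near copies are less certain.

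Groups were taken from the treatment label. The 5 PTZ+Q808 and 5 PTZ libraries were fitted in limma 3.58.1 (R 4.3.3) with trend on log2(FPKM + 1), so differences of low genes are understated. Genes at 1 FPKM or more in at least 5 of 10 libraries were tested, two-sided, with Benjamini-Hochberg adjustment over all of them and a threshold of 0.05. The ± of a log2 difference is its standard error, with 5 libraries in each group. The fit was tested on simulated data. Single values per library were compared by exact permutation.

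Gene symbols are those of the files, and 20633 identifiers matched RefSeq. Promoters were read from RefSeq's GRCr8 table, searched on both strands. Fos, Arc and Elane have no entry there.

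Named genes were the 12 of smallest p in each direction, the 8 of largest difference in each direction among genes whose groups did not overlap, up to 3 of smallest p from each of 28 lists, and 26 panel genes. Some of these genes are not reported here. Other genes given with values, and 3 added lists of granulocyte, cerebellar and pineal genes, were chosen after their values were seen. The members, lists and tests were all chosen with earlier results of these data known. Other pseudocounts, filters, scalings, covariates, library subsets and a replicate block were tried, and each of the 10 libraries was left out in turn.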

Additional observations from a re-analysis of the deposited data

Results flagged for a closer look

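Each group of 5 libraries was examined for a highest or lowest library far from the other 4, by Dixon's criterion with a critical value of 0.71. Of 360 groups examined 25 met it, where chance flags about 1 in 20.

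PTZ replicate 4 stood apart in 7. It was the highest of the PTZ libraries for Atf3 (28.7 FPKM, others up to 4.99), Bdnf (22.2 FPKM, others up to 5.74), Fosb (138 FPKM, others up to 43.8), Rgs2 (108 FPKM, others up to 46.2) and the AP-1 subunit gene Jund (106 FPKM, others up to 68.5). The cholesterol synthesis gene Hmgcs1 was 123 FPKM there (others up to 103), and the mean log2(FPKM + 1) of the delayed activity-regulated list was 4.57 (others up to 4.00).

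PTZ replicate 1, the library with cerebellar and pineal transcripts, stood apart in 6. It was the highest of the PTZ libraries for Grm4 (17.2 FPKM, others up to 8.88), Lingo3 (11.8 FPKM, others up to 9.25), Lmod1 (4.59 FPKM, others up to 3.06), Mtif3 (9.40 FPKM, others up to 7.52), Nfya (6.99 FPKM, others up to 5.87) and Elane (0.0621 FPKM, the others listed at 0).

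PTZ+Q808 replicate 2 was the highest of its group for Hmgb2 (7.63 FPKM, others up to 4.62), Mtif2 (6.93 FPKM, others up to 5.61), Nsrp1 (7.68 FPKM, others up to 5.81) and the mean log2(FPKM + 1) of the oxidative phosphorylation list (7.47, others up to 7.29). PTZ+Q808 replicate 5 was the highest for Taf13 (33.3 FPKM, others up to 27.0) and for Car7, a carbonic anhydrase gene (11.1 FPKM, others up to 8.24). PTZ+Q808 replicate 3 had a mean log2(FPKM + 1) of 3.90 over the pituitary hormone list, with the others up to 1.34.

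Among PTZ libraries, replicate 2 was the highest for Nsf, a vesicle fusion ATPase gene (349.6 FPKM, others up to 321.9), and for Wdcp (2.59 FPKM, others up to 2.23). Replicate 3 was the lowest for Hmgb2 (2.84 FPKM, others from 3.68) and for the mean log2(FPKM + 1) of the mitochondrial translation list (3.98, others from 4.01). Replicate 5 was the highest for Adora1 (75.1 FPKM, others up to 70.0).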

How the results depend on the processing

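The count of 0 called genes also came from the other pseudocount, both other filters, 3 scalings, the fit with controls, library weights, a robust prior and 3 covariates. In the fit of the report an adjusted p under 0.1 called 0 genes as well, but the smallest adjusted p was 0.0672 with no filter (Mpo and Elane) and 0.0863 with the Ttr covariate (Wbscr27). The fit on libraries without Y-linked transcripts alone called 0 genes, with a smallest adjusted p of 0.0528. 1 gene was called without PTZ+Q808 replicate 3, the library with pituitary transcripts (LOC100910528). 1 was called among libraries with Y-linked transcripts, LOC108348142, a ribosomal protein L8 copy with a log2 difference of -2.03. Over the 10 libraries its difference was -0.75 ± 0.60 (adjusted p = 0.901 by limma). It was 13.0, 14.8, 85.0, 15.4 and 13.5 FPKM in PTZ+Q808 libraries, against 70.3, 55.3, 14.1, 15.1 and 61.0 FPKM in PTZ libraries. These values fall at separate low and high levels, so the gene is uncertain. 2 genes were called with no filter and a pseudocount of 0.1. The count at an unadjusted p under 0.05 was 286 among libraries with Y-linked transcripts and 339 without both PTZ replicate 1 and PTZ+Q808 replicate 3, against 703. With 1 library left out at a time it ran from 439 to 1063, and called genes ran from 0 to 1. The causes were not tested.

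The replicate number as a block called 0 genes, with 526 at an unadjusted p under 0.05 and a smallest adjusted p of 0.961. Same-numbered libraries correlated at -0.292 to 0.145 after subtracting group means. The labels state no pairing. These correlations cannot decide whether the numbers pair the animals, since other differences between libraries enter them too.

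Of the values of named genes under alternatives, 2428 kept their sign and 42 changed it, 37 of them with 1 library left out, and none belonged to a gene that passed the test. Nfkbia was -0.014 with equal totals, -0.0034 with quantile normalization and -0.0048 with the Ttr covariate. With the meningeal covariate Fos was -0.0032 and Gad1 0.0028. With 1 library left out, log2 differences ran from -0.19 to 0.40 for Fos, -0.061 to 0.40 for Egr1, -0.33 to 0.45 for Npas4, -0.32 to 0.29 for Arc, -0.23 to 0.25 for Nr4a1, -0.065 to 0.065 for Nfkbia, -0.023 to 0.019 for Gad1, -0.10 to 0.0048 for Gabbr2, -0.20 to 0.016 for Scn1a, -0.016 to 0.097 for Scn2a and -0.088 to 0.044 for Abcb1a. Equal totals moved the median of all genes to -0.021, under 0.1. Unknown depth limits the genes near or under 1 FPKM most.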
